A study of Mus musculus with 8 samples.

Results

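The genes described here are 36 mouse genes of protein folding, chosen by name and called chaperone genes below. Of these, 17 were assigned to the endoplasmic reticulum (ER), 16 to the cytosol and 3 to mitochondria. Among the cytosolic genes, 4 encode subunits of the chaperonin TRiC. Not all of the 36 encode chaperones. The ER genes include the transcription factor Xbp1 and the degradation genes Herpud1 and Edem1, and the cytosolic genes include the transcription factor Hsf1. They are counted with their compartment throughout. A gene counted as measured where a probe of the array carried its name, which held for 35 of the 36 genes (44 probes), and 34 of these passed the filter on dim probes, out of 20840 genes tested in all. The cells were mouse embryonic fibroblasts (MEFs) of genotype Csk-/-, and every group, 0 h included, lacked Csk, the kinase that phosphorylates the inhibitory tail tyrosine of Src family kinases. They had been transfected with pBKT2-c-Src, from which 1 ug/ml doxycycline switched on c-Src, and RNA was taken at 0, 6, 24 and 72 h of induction, with 2 arrays at each time. Per the labels each sample was run in duplicate, and they do not say that the duplicates came from separate cultures or whether the cells were 1 clone, so p-values measure only the spread between arrays, which may be technical. The groups differ in time in doxycycline as well as in c-Src, and these cannot be told apart here.

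Proteins that enter the secretory pathway fold in the ER with the help of the Hsp70 protein BiP (Hspa5), the Hsp90 protein Grp94 (Hsp90b1), the lectins calnexin and calreticulin, and protein disulfide isomerases. When unfolded proteins build up there, the sensors IRE1, PERK and ATF6 start the unfolded protein response: spliced XBP1 and cleaved ATF6 raise the chaperone genes, while PERK slows translation and favours ATF4 and its target CHOP (Ddit3). In the cytosol, Hsp70, Hsp90 and their partners are raised by the heat shock factor HSF1, and TRiC folds actin and tubulin. Mitochondria import most of their proteins unfolded and refold them with mortalin (Hspa9) and the chamber formed by Hsp60 (Hspd1) and Hsp10 (Hspe1). Src kinases are themselves clients of Hsp90 and its kinase partner Cdc37.

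The control of these genes can be read in part from their promoters, so the 250 bases before each start were searched on both strands in RefSeq sequence (GRCm38.p6), where 29 of the 36 genes had an entry. The ER stress response element (ERSE: CCAAT, any 9 bases, CCACG), which XBP1 and ATF6 bind together with NF-Y, was present in 7 of 15 ER genes (46.7%), in 0 of 12 cytosolic and in 0 of 2 mitochondrial ones, against 35 of 27025 genes of the whole table (0.13%). The element was first defined from promoters of genes such as Hspa5, so this share is a description of the set. The stretches that hold it are given with the matched bases in capitals, read 5′ to 3′ along the gene's own strand. In the Hspa5 stretch the first capitals mark a core of the unfolded protein response element (TGACGTG), which 1.85% of all genes also held.
Hspa5 (chr2:34771925-34772051, plus strand): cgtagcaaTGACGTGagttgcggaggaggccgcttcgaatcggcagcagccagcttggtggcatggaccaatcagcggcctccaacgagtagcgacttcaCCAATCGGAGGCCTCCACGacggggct
Hsp90b1 (chr10:86705525-86705664, minus strand): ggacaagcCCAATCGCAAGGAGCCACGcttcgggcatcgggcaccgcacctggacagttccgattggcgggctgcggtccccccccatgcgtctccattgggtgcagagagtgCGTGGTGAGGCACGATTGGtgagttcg
Dnajc3 (chr14:118937819-118937853, plus strand): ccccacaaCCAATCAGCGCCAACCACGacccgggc
Creld2 (chr15:88819512-88819546, plus strand): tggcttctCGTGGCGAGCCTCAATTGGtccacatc
Calr (chr8:84847067-84847101, minus strand): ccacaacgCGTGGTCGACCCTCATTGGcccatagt
Canx (chr11:50325792-50325826, minus strand): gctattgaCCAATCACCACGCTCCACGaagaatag
Pdia6 (chr12:17266483-17266517, plus strand): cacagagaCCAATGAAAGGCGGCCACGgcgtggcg
The Hsp90b1 stretch has 2 matches, 1 on each strand. In Creld2 and Calr the match lies on the strand opposite to the gene, so the CCAAT box reads as ATTGG.

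A different form of the element, ERSE-II (ATTGG, any 1 base, CCACG), was found among the ER genes in Herpud1 only, and in 10 of the 27025 genes (0.037%). A heat shock element (TTC, any 2 bases, GAA, any 2 bases, TTC) was found in both mitochondrial genes with an entry. It was found in 0 of 12 cytosolic and 0 of 15 ER genes with an entry, against 139 of 27025 genes (0.514%). Only this exact pattern was searched, so elements with a changed base or spacing were not counted. The cytosolic genes Hspa8, Hsp90aa1, Hsp90ab1 and Hsf1 had no entry to search. Hspd1 and Hspe1 lie on opposite strands of chromosome 1. In 1 pair of entries they stand head to head with starts 216 bases apart, so both lines show the same bases. The capitals cover 2 overlapping matches, 1 on each strand. In the other pair the starts are 95 bases apart and do not diverge. The 2 promoter entries there share 4 bases, and the stretch shown lies outside that entry of Hspd1. A match is a description of these letters, not a bound site.
Herpud1 (chr8:94386369-94386395, plus strand): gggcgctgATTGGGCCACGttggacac
Hspd1 (chr1:55088051-55088084, minus strand): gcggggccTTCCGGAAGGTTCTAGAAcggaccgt
Hspe1 (chr1:55088051-55088084, plus strand): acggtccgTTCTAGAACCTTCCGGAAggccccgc

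The cytosolic Hsp70 genes Hspa1a and Hspa1b are near-identical copies. Of these names the array carries Hspa1a alone, and the accessions listed for its probe are those of both copies, so the probe reads them together. Its 60 bases (chr17:35107117-35107176 in mm9) were as follows.
Hspa1a probe: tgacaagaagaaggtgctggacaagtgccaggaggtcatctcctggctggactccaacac

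The 8 arrays lay on 1 slide, with the time following the slide row and the replicate number the slide column, so time and slide row cannot be told apart. Levels are given as log2 of the processed signal minus the log2 of the array's 75th percentile, here called the log2 signal. Replicate arrays correlated at 0.9964 to 0.9975 across genes. Src, the induced gene, was 26.9-fold higher at 6 h, 23.8-fold at 24 h and 19.6-fold at 72 h (limma, highest adjusted p = 1.42e-05), and the Csk probe was well above background on 0 of 8 arrays. Of 11 fibroblast markers 9 were well above background on all arrays and Thy1 on none, and the summed signal of the list, in multiples of the 75th percentile, ranged from 968.6 to 1038 at 0 h, 1032 to 1051 at 6 h, 870.0 to 905.5 at 24 h and 810.6 to 818.9 at 72 h. The sum for 6 epithelial markers was 2.94 to 3.67 at 0 h, 3.27 to 3.31 at 6 h, 4.23 to 5.03 at 24 h and 4.90 to 5.07 at 72 h, and that for 5 skeletal muscle markers was 1.12 at 0 h and 2.06 to 2.25 on the later arrays. The epithelial list was mixed at 72 h, with Krt8 and Krt18 called higher and Krt19 lower (-1.46), and in the muscle list Acta1 was higher from 6 h on (1.54, 1.43 and 1.46) while Des passed no test. Among the fibroblast markers Vim was called higher at 72 h (0.65). All other tested markers of that list were called lower at 72 h. These were Col1a1, Col1a2, Col3a1 (-1.31), Pdgfra (-1.18), Pdgfrb (-1.62), Fn1 (-0.29), S100a4 (-0.27), Dcn and the dim Lum. The sum for 6 macrophage markers lay between 16.2 and 17.9 on all arrays, most of it from Itgam, which passed no test, while the dim Cd68 was called higher at 6, 24 and 72 h (limma, adjusted p = 0.00771, 0.000911 and 0.000133) and Csf1r was 1.85-fold, 1.75-fold and 1.35-fold higher. The sum for 5 endothelial markers lay between 2.23 and 2.47, with the dim Tek called lower at 24 h and 72 h (adjusted p = 0.0152 and 0.00137). Their defining genes Epcam, Cdh1, Ptprc, Adgre1, Cdh5, Tie1, Myog and Myod1 were well above background on no array. These marker changes ran alongside the results given here, and their part in them was not tested. In RNA from a whole culture, fewer cells of a type and less RNA per cell cannot be told apart.

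The chaperones of the 3 compartments moved apart during induction. All 3 mitochondrial genes and all 4 chaperonin subunits of the set were higher at 24 h than at 0 h, whereas 10 of 17 ER genes were lower and 1 was higher, and the other 10 cytosolic genes were split, with 2 higher and 1 lower. At 72 h, 3 of 3 mitochondrial genes, 3 of 4 chaperonin subunits and 3 of 10 other cytosolic genes were higher, 8 of 17 ER genes and 2 other cytosolic genes were lower, and 1 ER gene was higher. A gene is called higher or lower here where its limma p, adjusted by Benjamini-Hochberg over all 20840 genes, was under 0.05. Over all genes, 41.5% were called at 24 h (21.4% higher, 20.1% lower) and 52.0% at 72 h (27.5% higher, 24.6% lower). Of the 34 chaperone genes 21 were called at 24 h (61.8%) and 20 at 72 h (58.8%). The share at 72 h was near that of all genes, and for the ER genes alone it was 52.9%. At 6 h, 7 of 34 were called (20.6%), near the 17.6% of all genes. All 7 were higher, while of all genes 10.3% were called higher and 7.24% lower.

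**Figure D1:**
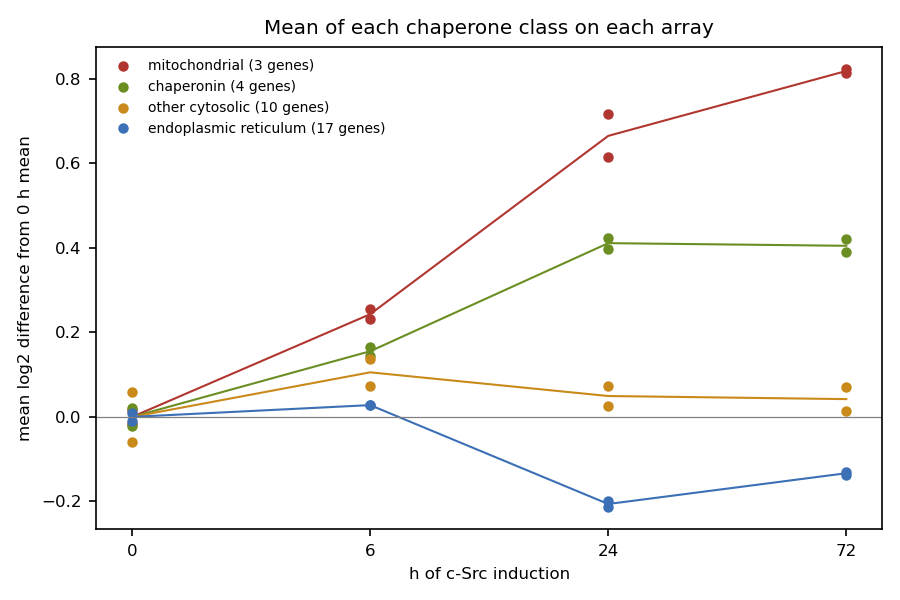
Mean log2 difference from the 0 h mean on each of the 8 arrays, by chaperone class; points are arrays, lines join the means of the 2 arrays of a time, and times are evenly spaced on the x axis. The mitochondrial means at 72 h are 0.81 and 0.82, the chaperonin means 0.42 and 0.39, and the ER means -0.13 and -0.14.

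The mean of the ER genes, set to their own mean at 0 h, was 0.03 and 0.03 on the 6 h arrays, -0.20 and -0.21 on the 24 h arrays, and -0.13 and -0.14 on the 72 h arrays, on the log2 scale. Within each slide column the 24 h array also lay below the 0 h array, by -0.21 in column 1 and -0.20 in column 2. The mitochondrial mean rose from 0.23 and 0.26 at 6 h to 0.61 and 0.72 at 24 h and 0.81 and 0.82 at 72 h. The distance between these classes on the same array does not depend on the 75th percentile or median used to scale that array. From -0.03 and 0.03 at 0 h, the mitochondrial minus ER difference went to 0.20 and 0.23 at 6 h, 0.81 and 0.93 at 24 h, and 0.94 and 0.96 at 72 h. The chaperonin minus ER difference reached 0.60 and 0.64 at 24 h and 0.55 and 0.53 at 72 h. These are descriptions of chosen genes, with no test of the classes against each other.

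The ER genes had a median log2 difference from 0 h of 0.03 at 6 h (-0.05 with quantile normalization), -0.28 at 24 h and -0.21 at 72 h, beside 0.00, -0.02 and 0.00 over all genes. The counts of ER genes called lower rested on the scaling. With arrays scaled to their median, the median of all genes moved to 0.13 at 24 h and 0.18 at 72 h and that of the ER genes to -0.13 and -0.03, and 1 of 17 was called lower at each time in place of 10 and 8. At 24 h the call held for the transcription factor Xbp1 (-0.29, adjusted p = 0.0288) and ended for the other 9 genes (adjusted p from 0.0751 to 0.508). At 72 h it held for Pdia3 (-0.22, adjusted p = 0.0394) and ended for the other 7 (0.0542 to 0.796). Over all genes the split at 24 h was then 6043 higher and 2052 lower, against 4451 and 4197, and at 72 h 8023 and 2664, against 5721 and 5125. With quantile normalization 10 ER genes were called lower at 24 h and 11 at 72 h. The ER median was -0.33 and -0.21 there, so under each of these scalings it lay below the median of all genes at both times. With the mean of a gene's probes the ER median at 72 h was -0.10, with 8 genes called lower.

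**Figure D2:**
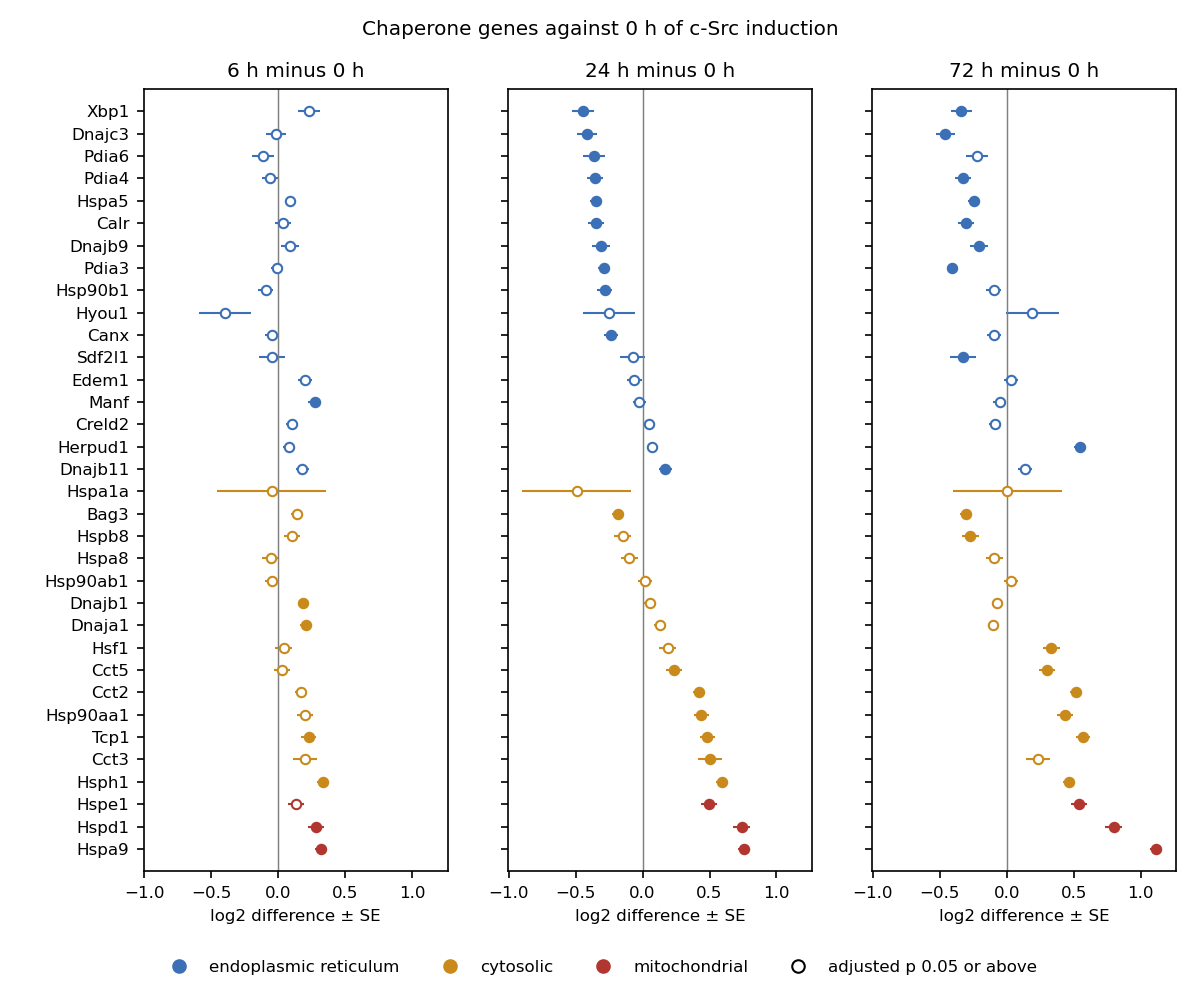
Log2 difference from 0 h with its standard error for the 34 tested chaperone genes at 6, 24 and 72 h, coloured by compartment and ordered by the 24 h difference; filled points have an adjusted p under 0.05. At 24 h the called ER genes lie between -0.44 and 0.17, and the mitochondrial genes between 0.50 and 0.76.

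Among the major ER chaperones, Hspa5, which encodes BiP, the Hsp70 protein that binds unfolded chains and holds the stress sensors inactive (probe at chr2:34631913-34631972, mm9), had log2 signals of 6.69 and 6.72 at 0 h, 6.79 and 6.80 at 6 h, 6.38 and 6.34 at 24 h, and 6.48 and 6.45 at 72 h. Both 24 h arrays and both 72 h arrays lay below all 0 h and 6 h arrays. The fall was 1.27-fold at 24 h (-0.35, SE 0.042, adjusted p = 0.00183) and 1.19-fold at 72 h (-0.25, adjusted p = 0.0045), while 6 h did not pass the test (0.09, adjusted p = 0.201). With median scaling the values were -0.20 (adjusted p = 0.100) and -0.06 (adjusted p = 0.536), and neither call held. Hsp90b1, the ER Hsp90 that matures integrins and Toll-like receptors, had 6.89 and 6.90 at 0 h and 6.56 and 6.66 at 24 h, a fall by 0.28 (adjusted p = 0.00944), and stood at 6.78 and 6.81 at 72 h (adjusted p = 0.182). Hyou1, a large Hsp70 relative that exchanges the nucleotide of BiP, was read by a dim probe with a standard error of 0.20, and its values of -0.40, -0.25 and 0.19 at 6, 24 and 72 h did not pass the test.

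The J-domain partners of BiP were not uniform. Dnajc3 (p58IPK), which delivers substrates to BiP, had 0.70 and 0.82 at 0 h, 0.76 and 0.73 at 6 h, 0.42 and 0.27 at 24 h and 0.27 and 0.34 at 72 h. Its 24 h and 72 h arrays all lay below the earlier ones, with falls of 1.33-fold and 1.37-fold (adjusted p = 0.0066 and 0.00344). Dnajb9 (ERdj4), which guides BiP to IRE1, was lower by 0.31 at 24 h and by 0.21 at 72 h (-0.31 and -0.21, adjusted p = 0.0149 and 0.0482). Its dimmer probe gave -0.31 at 24 h and 0.35 at 72 h, neither past the test, and the mean of both probes turned the 72 h value to 0.07. Dnajb11 (ERdj3), a soluble partner, was the ER gene called higher at 24 h (0.17, adjusted p = 0.0395), with 3.89 and 3.84 at 0 h against 4.05 and 4.02. Sdf2l1, which forms a complex with Dnajb11 that keeps misfolded chains soluble, was lower at 72 h (-0.33, adjusted p = 0.0325).

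Both lectin chaperones were lower at 24 h. Calr (calreticulin), the soluble lectin that also stores calcium, had 4.70 and 4.79 at 0 h, 4.81 and 4.75 at 6 h, 4.45 and 4.35 at 24 h and 4.46 and 4.42 at 72 h. The later arrays were all below the earlier ones, and the falls were 1.27-fold at 24 h (adjusted p = 0.00645) and 1.24-fold at 72 h (adjusted p = 0.00792). Canx (calnexin), its membrane-bound relative, had 5.79 and 5.77 at 0 h against 5.55 and 5.55 at 24 h (-0.23, adjusted p = 0.0168), and 5.72 and 5.65 at 72 h (adjusted p = 0.187).

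Protein disulfide isomerases form and reshuffle disulfide bonds. Pdia3 (ERp57), which works with both lectins, had 3.28 and 3.32 at 0 h, 3.30 and 3.28 at 6 h, 2.99 and 3.03 at 24 h and 2.90 and 2.89 at 72 h. It fell 1.22-fold at 24 h and 1.32-fold at 72 h (adjusted p = 0.00334 and 0.000675), and its 72 h arrays were the lowest of the 8. Pdia4 (ERp72) had 1.33 and 1.28 at 0 h against 0.92 and 0.98 at 24 h and 1.03 and 0.92 at 72 h, falls of 1.28-fold and 1.25-fold (adjusted p = 0.00609 and 0.00644). Pdia6 (P5) was lower by 0.36 at 24 h (-0.36, adjusted p = 0.0171) and did not pass the test at 72 h (-0.22, adjusted p = 0.0691). Its dimmer probe gave smaller differences of -0.09 and -0.13, neither past the test.

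Xbp1, the transcription factor whose mRNA IRE1 splices (probe at chr11:5425816-5425875, mm9), had 4.87 and 4.98 at 0 h, 5.05 and 5.25 at 6 h, 4.48 and 4.49 at 24 h, and 4.54 and 4.63 at 72 h. The 6 h arrays were the 2 highest, although the 6 h difference did not pass the test (0.23, adjusted p = 0.118), and all later arrays were below those of 0 h. The falls from 0 h were 1.36-fold at 24 h (adjusted p = 0.00806) and 1.26-fold at 72 h (adjusted p = 0.0167), and from 6 h to 24 h the difference was -0.67 (adjusted p = 0.00419). Splicing of the mRNA was not measured. Manf, a secreted factor of the stressed ER, was the ER gene called higher at 6 h, with 3.51 and 3.46 at 0 h and 3.77 and 3.74 at 6 h (0.27, adjusted p = 0.0164), and stood at 3.47 and 3.46 at 24 h. Creld2, a further target of the response, passed no test, with differences of 0.10, 0.05 and -0.09 at 6, 24 and 72 h.

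Herpud1 was the only ER gene called higher at 72 h in the fit reported here. It encodes an ER membrane protein that organises the degradation of misfolded proteins, and its log2 signals were 3.57 and 3.55 at 0 h, 3.66 and 3.61 at 6 h, 3.64 and 3.62 at 24 h, and 4.10 and 4.10 at 72 h (probe at chr8:96919117-96919176, mm9). Only the 72 h arrays stood apart, 1.46-fold above 0 h (0.55, SE 0.043, adjusted p = 0.000268) and 0.47 above 24 h on the log2 scale (adjusted p = 0.00347). This call held under all 18 alternatives run. Edem1, a lectin that hands glycoproteins to degradation, had differences of 0.20, -0.06 and 0.03 from 0 h, none past the test, and was lower at 24 h than at 6 h (-0.26, adjusted p = 0.0201).

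Leaving out 1 array at a time, and fitting the other 7, kept 8 to 10 ER genes called lower at 24 h and 5 to 8 at 72 h. At 24 h the calls that ended were those of Dnajb9 (without 0 h replicate 2 or either 24 h array, adjusted p up to 0.0689), Canx (without any array of 0 h or 24 h, up to 0.0719), Pdia6 (without 0 h replicate 1, 0.082) and Dnajb11 (without any 0 h, 24 h or 72 h array, up to 0.156). At 72 h they were those of Dnajb9 (without 0 h replicate 2, 72 h replicate 1 or any 6 h or 24 h array, up to 0.213), Sdf2l1 (without any 0 h or 72 h array, up to 0.146) and Xbp1 (without 0 h replicate 2 or 72 h replicate 1, up to 0.086). That of Manf at 6 h ended without any 0 h or 6 h array (up to 0.0859).

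Of the 7 ER genes with an ERSE in the window, 6 were lower at 24 h and Creld2 was not called, with a median log2 difference of -0.35 and a range from -0.42 to 0.05. Of the 8 ER genes with a promoter entry and no ERSE, 4 were lower and 1 was higher, with a median of -0.18. At 72 h, 3 of the 7 and 5 of the 8 were lower, with medians of -0.22 and -0.27. The sets were thus not ordered the same way at both times, and no test was made between them. Herpud1, the holder of ERSE-II, lay outside the range of every other ER gene at 72 h, where the others ran from -0.46 to 0.19.

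Cytosolic genes outside the chaperonin had a median difference of 0.12 at 6 h, 0.03 at 24 h and -0.03 at 72 h. With median scaling the later values were 0.18 and 0.15, and 4 of 10 genes were called higher and 0 lower at 24 h. With quantile normalization they were -0.002 and -0.09, so the balance of these genes at the later times had no settled direction. Within the set, Hsph1 was called higher at every time, Hsp90aa1 at 24 h and 72 h, and Dnaja1 and Dnajb1 at 6 h alone. Hsph1 (Hsp110), a nucleotide exchange factor and disaggregase (probe at chr5:150419744-150419803, mm9), had 4.01 and 3.95 at 0 h, 4.33 and 4.29 at 6 h, 4.57 and 4.57 at 24 h and 4.45 and 4.43 at 72 h. All later arrays lay above those of 0 h, and the rises were 0.33, 0.59 and 0.46 on the log2 scale (1.51-fold at 24 h, SE 0.044, adjusted p = 0.000391). A second, dimmer probe of Hsph1 gave 0.35, 0.66 and 0.52. The 24 h and 72 h calls held under all 18 alternatives.

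The J-domain proteins Dnaja1 and Dnajb1 (Hsp40), which load substrates onto Hsp70, were called higher at 6 h alone. Dnaja1 had 6.85 and 6.82 at 0 h, 7.03 and 7.05 at 6 h, 6.94 and 6.99 at 24 h and 6.72 and 6.74 at 72 h, so its 72 h arrays were the lowest of all. Its differences were 0.20 at 6 h (adjusted p = 0.0261), 0.13 at 24 h, -0.10 at 72 h, and -0.23 from 24 h to 72 h (adjusted p = 0.0175). A dim second probe of Dnaja1 did not show the early rise, with -0.12 at 6 h (adjusted p over all kept probes = 0.482), and was lower at 72 h (-0.62, 0.00466). Dnajb1 had 5.56 and 5.52 at 0 h and 5.71 and 5.74 at 6 h (0.19, adjusted p = 0.0344), and 0.05 and -0.07 at the later times. Both calls at 6 h ended without any 0 h, 6 h or 72 h array (adjusted p up to 0.128 and 0.164) and under median scaling and quantile normalization.

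Bag3, the Hsp70 partner that sends clients to selective autophagy, and Hspb8, the small heat shock protein that works with it, were both lower at 72 h. Bag3 had 2.99 and 2.97 at 0 h, higher values on both 6 h arrays, 2.82 and 2.77 at 24 h, and 2.68 and 2.68 at 72 h. Its 6 h difference did not pass the test (0.14, adjusted p = 0.0862). Its 72 h arrays were the lowest, with falls of 1.14-fold at 24 h (adjusted p = 0.0198) and 1.23-fold at 72 h (adjusted p = 0.00258). Hspb8 had 2.42 and 2.38 at 0 h against 2.19 and 2.06 at 72 h, a fall of 1.21-fold (adjusted p = 0.0136). With median scaling neither gene was called lower at 72 h (Bag3 -0.12, adjusted p = 0.294, Hspb8 -0.09, adjusted p = 0.507). The 24 h call of Bag3 also ended with median scaling (-0.04, adjusted p = 0.768), with no filter on dim probes, and in a fit of the 2 times alone. Leaving out an array ended the 24 h call of Bag3 (without either 0 h array or 24 h replicate 2, adjusted p up to 0.0836) and the 72 h call of Hspb8 (without 0 h replicate 1 or 72 h replicate 2, up to 0.0706).

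The 2 cytosolic Hsp90 genes, whose products hold kinases such as Src in an activatable state, gave 1 call between them at each later time. Hsp90aa1, the inducible form, had 7.06 and 7.08 at 0 h, 7.24 and 7.30 at 6 h, 7.44 and 7.57 at 24 h and 7.49 and 7.52 at 72 h. Its arrays at 24 h and 72 h were all above those of 6 h, which were above those of 0 h, with rises of 1.36-fold at 24 h (0.44, adjusted p = 0.00251) and 1.35-fold at 72 h (0.43, adjusted p = 0.00183). Hsp90ab1, the constitutive form, had 8.91 and 8.83 at 0 h and between 8.82 and 8.94 on the other arrays, with differences of -0.05, 0.02 and 0.03 (SE 0.053). The difference between the 2 genes was not tested.

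Constitutive Hsp70 (Hspa8) had differences of -0.06, -0.10 and -0.09 that did not pass the test, and its other 2 probes gave 0.15 and 0.01 at 24 h, also short of it. The stress-inducible Hsp70 probe (Hspa1a and Hspa1b) was dim, well above background on 6 of 8 arrays and on both arrays of 6 h and 72 h. Its log2 signals ran from -5.23 to -3.91 with a standard error of 0.41, so a change of the size seen in the other genes was not detectable there. Hsf1, which drives the heat shock response (probe at chr15:76331320-76331379, mm9), had 2.78 and 2.82 at 0 h, 2.82 and 2.85 at 6 h, 2.92 and 3.06 at 24 h, and 3.09 and 3.17 at 72 h. The 72 h arrays were the highest, 1.26-fold above 0 h (0.33, adjusted p = 0.00729), and 24 h did not pass the test (0.19, adjusted p = 0.0635). For Hspb1 (Hsp25), a small heat shock protein, 0 of 8 arrays were well above background, and it was not tested.

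The 4 listed subunits of the chaperonin TRiC, a chamber of different subunits that folds actin and tubulin, were all higher at 24 h, with a median of 0.45 (0.60 with median scaling and 0.39 with quantile normalization). Tcp1 (subunit alpha) (probe at chr17:13116096-13116155, mm9) had 5.52 and 5.50 at 0 h, 5.72 and 5.76 at 6 h, 5.93 and 6.06 at 24 h and 6.07 and 6.09 at 72 h. Its arrays rose without overlap from 0 h to 6 h to 24 h, and the differences were 0.23, 0.48 and 0.57 (1.40-fold at 24 h, adjusted p = 0.00149, and 1.48-fold at 72 h, adjusted p = 0.000538). Cct2 (beta) (probe at chr10:116490137-116490196, mm9) had 7.07 and 7.06 at 0 h, 7.21 and 7.25 at 6 h, 7.47 and 7.49 at 24 h and 7.61 and 7.55 at 72 h. It was 1.34-fold higher at 24 h and 1.43-fold at 72 h (adjusted p = 0.0011 and 0.000337), with no overlap between any of the times.

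Cct3 (gamma) (probe at chr3:88124479-88124538, mm9) had 4.21 and 4.05 at 0 h, 4.34 and 4.32 at 6 h, 4.72 and 4.54 at 24 h and 4.43 and 4.30 at 72 h. The 24 h arrays were the highest, 1.42-fold above 0 h (0.50, SE 0.091, adjusted p = 0.00754), and 72 h did not pass the test (0.23, adjusted p = 0.0773). Cct5 (epsilon) was higher by 1.18-fold at 24 h and 1.23-fold at 72 h (adjusted p = 0.0233 and 0.00803). At 24 h Cct5 was not called with normexp correction, with no filter on dim probes, or in a fit of the 2 times alone. Its 24 h call ended without either 0 h array or 24 h replicate 2 (adjusted p up to 0.0943), and the 6 h call of Tcp1 (adjusted p = 0.0419) ended without any 0 h, 6 h or 72 h array (up to 0.180).

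**Figure D3:**
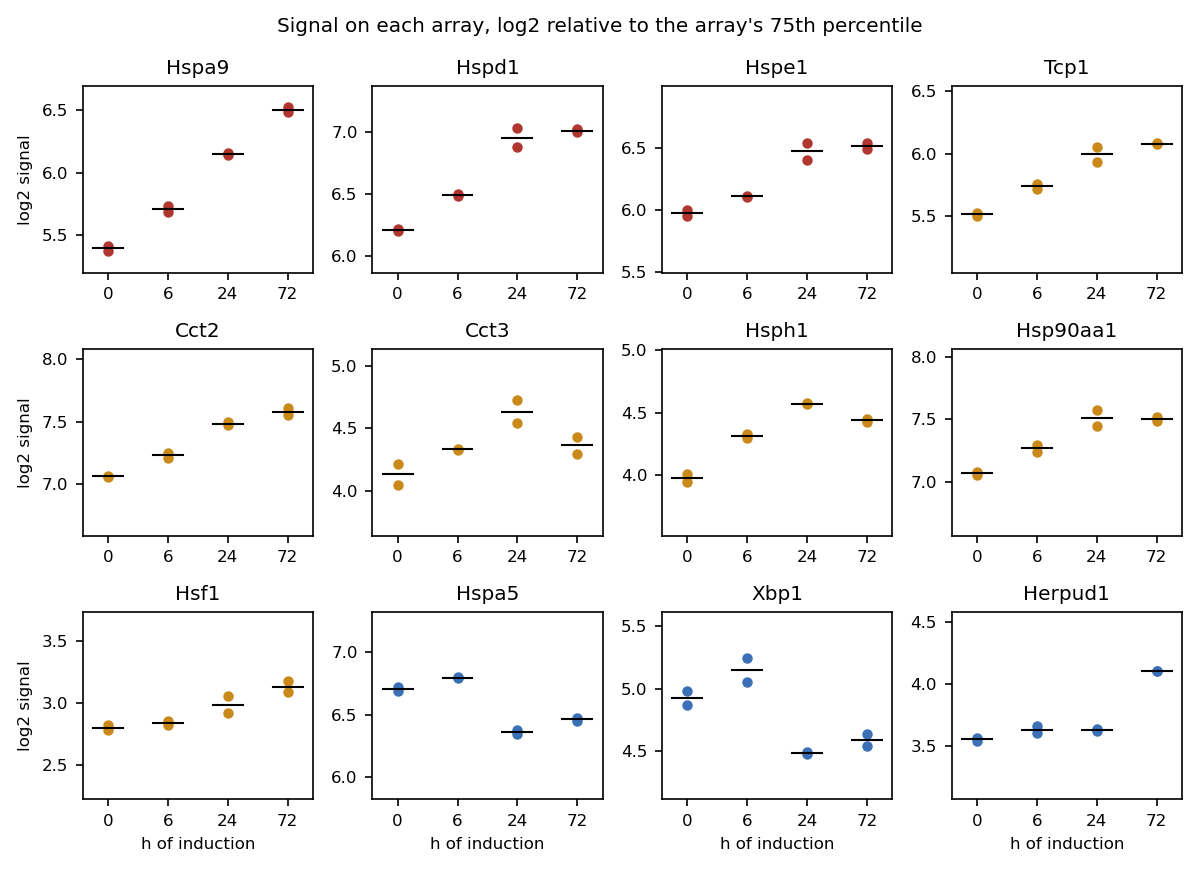
Log2 signal on each array for 12 chaperone genes; points are the 2 arrays of each time, bars their mean, and every panel spans the same range of 1.5 log2 units around its own centre. Hspa9 climbs at each step from 5.37 and 5.41 to 6.52 and 6.49, and Herpud1 steps up at 72 h alone. Xbp1 has its highest arrays at 6 h, where the difference from 0 h did not pass the test, and is lower from 24 h.

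Hspa9 and Hspd1 had the largest rises of the 34 genes at 24 h and at 72 h. Hspa9 (mortalin), the Hsp70 of the matrix that pulls in imported chains, had 5.37 and 5.41 at 0 h, 5.68 and 5.73 at 6 h, 6.14 and 6.15 at 24 h, and 6.52 and 6.49 at 72 h. The arrays climbed without overlap at every step, and the level was 1.24-fold, 1.69-fold and 2.17-fold that of 0 h (0.32, 0.76 and 1.12, SE 0.044, adjusted p = 0.00925, 0.000222 and 5.16e-05). It was the only one of the 34 called in each of the 5 comparisons and in the same direction.

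Hspd1 (Hsp60) (probe at chr1:55134697-55134756, mm9) had 6.21 and 6.22 at 0 h, 6.48 and 6.50 at 6 h, 6.87 and 7.03 at 24 h and 7.00 and 7.02 at 72 h. The 24 h and 72 h arrays overlapped and stood above the others, 1.67-fold and 1.74-fold higher than 0 h (0.74 and 0.80, SE 0.061, adjusted p = 0.000546 and 0.000249). Hspe1 (Hsp10), the lid of the Hsp60 chamber, which shares the promoter shown above with Hspd1 (probe at chr1:55148026-55148085, mm9), had 5.95 and 6.00 at 0 h, 6.11 and 6.11 at 6 h, 6.40 and 6.54 at 24 h and 6.49 and 6.54 at 72 h. The pattern was that of Hspd1 at a smaller size, 1.41-fold at 24 h and 1.46-fold at 72 h (adjusted p = 0.00183 and 0.00087). The other 2 probes of Hspe1 gave 0.45 and 0.57 at 24 h and 0.56 and 0.61 at 72 h. At 6 h Hspd1 was called (0.28, adjusted p = 0.032) and Hspe1 was not (0.14, adjusted p = 0.181). The 6 h calls ended for Hspd1 without any 0 h, 6 h or 72 h array (adjusted p up to 0.141) and for Hspa9 without 0 h replicate 1 or 6 h replicate 2 (up to 0.0638), while the 24 h and 72 h calls of all 3 genes held under all 18 alternatives.

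More chaperones were called between 6 h and 24 h than from 0 h to 6 h or from 24 h to 72 h. Of the 34 genes 19 were called from 6 h to 24 h (55.9%), against 26.2% of all genes (12.6% higher, 13.6% lower). In this step 10 of 17 ER genes were lower, and 2 of 4 chaperonin subunits and 3 of 3 mitochondrial genes were higher. Of the other 10 cytosolic genes 2 were higher and 2 lower. Among the called genes Xbp1 had the largest fall (-0.67), followed by Hspa5 (-0.44, adjusted p = 0.00216), and Hspd1 the largest rise (0.46, adjusted p = 0.00519). With median scaling 3 of 17 ER genes were called lower in this step. Leaving out 1 array left 2 to 9 of them, with the call of Canx (adjusted p = 0.0497) ending whichever of the 8 arrays was left out (up to 0.209). The calls of Calr, Manf, Pdia3 and Cct2 ended without 6 h replicate 1 (0.0544, 0.0566, 0.0502 and 0.0687), and that of Hsph1 without 6 h replicate 2 (0.0659). Those of Dnajb9, Dnajc3, Edem1 and Tcp1 ended without either 6 h array or 24 h replicate 2 (up to 0.108), that of Hspe1 without either 6 h array (0.0561), and that of Pdia4 without any 6 h or 24 h array (0.0989). The calls of Hspb8 (without any 0 h, 6 h or 24 h array) and Hsp90aa1 (without any array but 24 h replicate 1) also ended (up to 0.145).

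Between 24 h and 72 h, 3 of 34 genes were called (8.82%), against 21.6% of all genes (10.8% higher, 10.9% lower). Hspa9 and Herpud1 were higher and Dnaja1 lower. The call of Hspa9 ended without 72 h replicate 1 (adjusted p = 0.0519) and that of Dnaja1 without either 72 h array (up to 0.0967). The ER median difference in this step was 0.09, with 11 of 17 genes above 0. Of the 10 called lower at 24 h, none was called higher in this step by the probe that stood for it, while the dimmer probe of Dnajb9 rose by 0.66 (adjusted p over all kept probes = 0.033).

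Counts in the lists of other genes around the chaperones are read beside those over all genes, of which 10.3% were called higher and 7.24% lower at 6 h, 21.4% and 20.1% at 24 h, and 27.5% and 24.6% at 72 h. A first list held 15 other genes of the unfolded protein response: sensors, proteases and transcription factors, and also Trib3, Ppp1r15a and Ppp1r15b. Its median was 0.31 at 24 h and 0.38 at 72 h. Of the 15 genes, 8 were higher and 0 lower at 6 h, 8 and 1 at 24 h, and 9 and 2 at 72 h. That makes 53.3%, 60.0% and 73.3% called in either direction, against 17.6%, 41.5% and 52.0% of all genes. With normexp correction the list median at 24 h was 0.16, with 6 higher and 1 lower. It was 0.46 with median scaling and 0.36 with quantile normalization. Ddit3, which encodes CHOP, was 5.27-fold above 0 h at 72 h (2.40, SE 0.081, adjusted p = 3.91e-05), with 0.75 at 6 h and 1.29 at 24 h. Trib3, a CHOP and ATF4 target that binds Akt, was 3.26-fold higher, and Ppp1r15a (GADD34), which restores translation, 2.17-fold higher. Creb3l1, a membrane-bound factor of collagen-secreting cells, was 2.06-fold lower (-1.04, adjusted p = 0.000159). Among the sensors, Ern1 (IRE1) rose by 0.48, 0.35 and 0.38 at 6, 24 and 72 h and Atf6 by 0.29, 0.58 and 0.35, while Eif2ak3 (PERK) was at -0.10, -0.24 and -0.26 and passed no test; these were chosen after their values were seen.

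**Figure D4:**
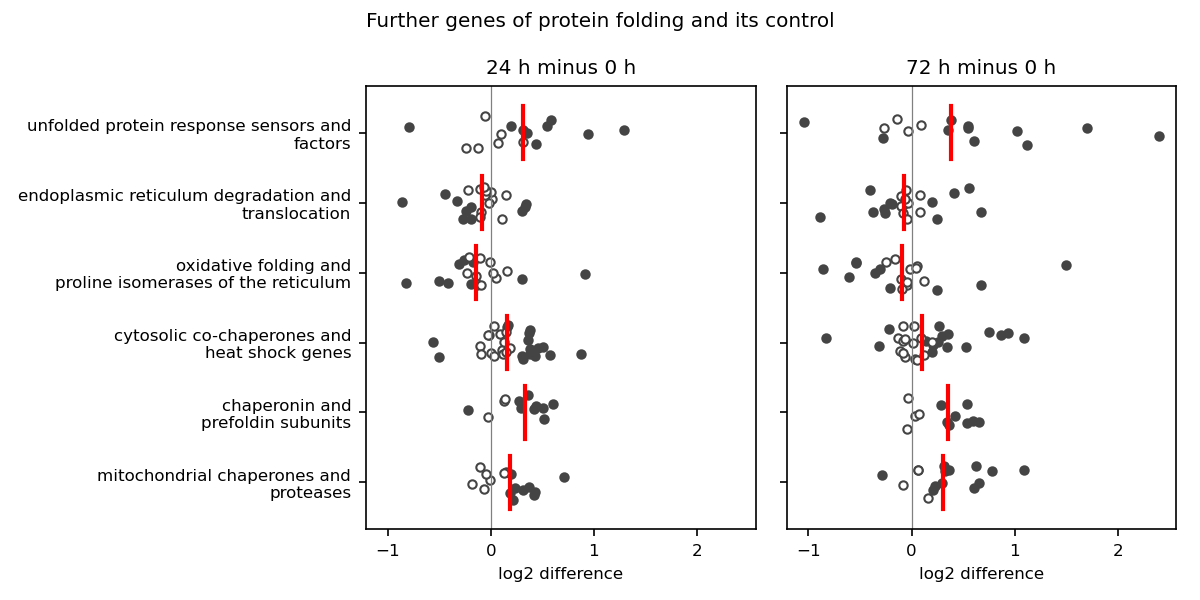
Log2 difference from 0 h at 24 h and 72 h for genes of 6 lists around the chaperones; each point is a gene, filled where the adjusted p was under 0.05, and red bars are medians. The unfolded protein response list reaches 2.40 at 72 h with Ddit3, and the reticulum folding and degradation lists lie on both sides of 0.

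Of 22 genes of ER degradation and of the translocation channel, 3 were higher and 7 lower at 24 h and 5 higher and 7 lower at 72 h, and Derl3 did not pass the filter. The shares called, 45.5% and 54.5%, were near the 41.5% and 52.0% of all genes. Edem3, a mannosidase of the degradation path, fell 1.85-fold at 72 h (-0.89, adjusted p = 0.000218) and the lectin Os9 1.36-fold at 24 h, whereas Sec63, the J protein that couples BiP to the channel, and Ube2j1, a ubiquitin-conjugating enzyme, were 1.60-fold and 1.47-fold higher at 72 h. With the mean of a gene's probes the call of Ube2j1 ended (adjusted p = 0.0672). Of 20 genes for oxidative folding and proline isomerisation, 2 were higher and 7 lower at 24 h and 3 and 7 at 72 h, or 9 and 10 of 20 called, also near the shares of all genes. Ero1a, the oxidase that recharges disulfide isomerases, was 2.83-fold higher at 72 h (SE 0.074, adjusted p = 7.39e-05) and Ero1b 1.59-fold higher, while the proline isomerases Fkbp14 and Fkbp7 were 1.81-fold and 1.52-fold lower. The medians of both lists were below 0 at 24 h (-0.08 and -0.14) and at 72 h (-0.07 and -0.10), and above it with median scaling (0.07 and 0.01, then 0.11 and 0.09), where 2 and 3 genes at 24 h and 1 and 4 at 72 h were called lower.

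Among 30 cytosolic co-chaperones and heat shock genes, 7 were higher and 0 lower at 6 h, 14 and 2 at 24 h, and 13 and 3 at 72 h. In either direction 23.3%, 53.3% and 53.3% were called, against 17.6%, 41.5% and 52.0% of all genes, so the share at 72 h was near the background. Hspa4l and Hspb6 (Hsp20) were 2.13-fold and 1.91-fold higher at 72 h, Bag2, an inhibitor of the Hsp70 ubiquitin ligase, 1.83-fold higher at 24 h, and Hspa2, an Hsp70 of the testis, 1.77-fold lower at 72 h. Of 12 further chaperonin and prefoldin genes, 8 were higher at 24 h and 8 at 72 h, with 1 and 0 lower (9 and 8 of 12 called). Cct8 and Cct4 were 1.51-fold and 1.45-fold higher at 72 h, and the prefoldin subunits Vbp1 and Pfdn4, which pass unfolded actin and tubulin to TRiC, 1.58-fold higher at 72 h and 1.52-fold at 24 h.

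Of 16 other mitochondrial chaperones and proteases, 2 were higher at 6 h, 9 at 24 h and 11 at 72 h, with 0, 0 and 1 lower (2, 9 and 12 of 16 called). Grpel2, a nucleotide exchange factor of Hspa9, was 2.13-fold higher at 72 h (1.09, SE 0.049, adjusted p = 5.98e-05), the matrix protease Lonp1 1.72-fold, the mitochondrial Hsp90 Trap1 1.58-fold and the protease Htra2 1.54-fold. The list median was 0.19 at 24 h and 0.30 at 72 h, and stayed above 0 with median scaling (0.34 and 0.48) and quantile normalization (0.09 and 0.23). The further exchange factor Grpel1 was higher at 6 h and 24 h (0.21 and 0.18) and not at 72 h (-0.08, adjusted p = 0.162), and was chosen after its values were seen.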

How the data were processed

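Total RNA was labelled with Cy3 and hybridised to 1-colour 8x60K mouse arrays, per the labels' protocols. The authors deposited scanner output of Agilent's Feature Extraction software, whose version was 10.5.1.1 per the file headers and 10.7.3.1 per the submitters' processing notes. Probe positions in it are on mm9. The processed signal of a spot is a linear intensity, background-corrected per the file headers. A value table of the same intensity, also deposited, differed from it by at most 0.497%.

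Each array's 75th percentile over 59305 non-control spots was taken from log2 of the signal. Outlier spots were left out, spots of 1 probe averaged, and a probe kept if well above background on both arrays of at least 1 time (28610 of 55681 probes). The brightest kept probe stood for its gene. With limma 3.58.1 in R 4.3.3, 4 time means were fitted to 8 arrays, and p was adjusted by Benjamini-Hochberg over 20840 genes per comparison, with a threshold of 0.05. The code was tested on simulated data. A difference had a median standard error of 0.075 (log2), and 49.9% to 54.7% of spots were well above background.

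The chaperone genes, the pathway lists and the marker lists were chosen with earlier results of these data known. Values on every array are given for members called against 0 h with a difference of at least 0.5, for Hspa5, Xbp1, Hsf1 and Hspd1, and for further members as examples. Of each pathway list the 4 genes with the largest called difference are named. Promoters came from RefSeq (GRCm38.p6), with no entry used for Hyou1, Manf, Hspa8, Hsp90aa1, Hsp90ab1, Hsf1 and Hspa9. Alternatives were median scaling, quantile normalization, normexp correction with an offset of 50, other probe filters, the mean of a gene's probes, the value table, outlier spots kept, a replicate block, a fit of the 2 times alone, and leaving out each array.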

Additional observations from a re-analysis of the deposited data

How the results depend on the processing

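Of 70 calls of single chaperone genes, 25 held under all 18 alternatives, and 45 ended under at least 1. Counts of called genes by compartment changed by over 1.5 times as follows. With median scaling, at 6 h 0 ER genes (from 1) and 1 cytosolic gene (from 4) were higher; at 24 h 1 ER gene (from 10) and 0 cytosolic genes (from 1) were lower; at 72 h 2 ER genes were higher (from 1), and 1 ER (from 8) and 0 cytosolic genes (from 2) lower; from 6 h to 24 h 3 ER (from 10) and 0 cytosolic genes (from 2) were lower; and from 24 h to 72 h 0 cytosolic genes were lower (from 1). With quantile normalization, at 6 h 0 ER genes were higher and 1 lower and 1 cytosolic gene was higher, at 24 h 0 ER genes were higher, and at 72 h 5 cytosolic genes were lower. With normexp correction 2 ER genes were higher at 6 h, at 72 h and from 24 h to 72 h (from 1 each). With no filter on dim probes, which tests 36095 genes, the calls at 6 h fell to 0 in every compartment; at 24 h 0 ER genes were higher, 6 ER and 0 cytosolic genes lower; at 72 h 5 ER genes and 1 cytosolic gene were lower; from 6 h to 24 h 2 ER genes and 1 cytosolic gene were lower and 0 cytosolic genes higher; and from 24 h to 72 h 0 cytosolic genes were lower and 0 mitochondrial genes higher. With probes well above background on all arrays, 2 ER genes were higher at 6 h. Fitting the 2 times alone left 0 ER, 1 cytosolic and 0 mitochondrial genes higher at 6 h, 0 ER genes higher and 0 cytosolic lower at 24 h, 5 ER genes and 1 cytosolic gene lower and 0 cytosolic higher from 6 h to 24 h, and 0 cytosolic lower and 0 mitochondrial higher from 24 h to 72 h. With the mean of a gene's probes, 2 ER genes were higher from 24 h to 72 h.

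The replicate number is the slide column, and same-numbered arrays deviated together only weakly (correlations of 0.0557 to 0.171). With the replicate block, 2 ER genes were higher at 6 h and 0 at 24 h, and from 24 h to 72 h 1 ER gene and 2 cytosolic genes were lower; ER genes called lower numbered 10 at 24 h and 9 at 72 h. Leaving out each array in turn gave 0 to 1 ER, 1 to 5 cytosolic and 0 to 2 mitochondrial genes higher at 6 h; 0 to 1 ER genes higher, 8 to 10 ER lower, 5 to 7 cytosolic higher and 0 to 1 lower at 24 h; 5 to 8 ER and 1 to 2 cytosolic genes lower at 72 h; 2 to 9 ER genes lower and 1 to 5 cytosolic genes higher and 1 to 2 lower from 6 h to 24 h; and 1 to 2 ER genes higher, 0 to 1 cytosolic lower and 0 to 1 mitochondrial higher from 24 h to 72 h. Such a fit assumes that the lone array of a time varies like the others.

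The direction turned for Hsf1 at 6 h with quantile normalization (-0.025, adjusted p = 0.762), for Dnajb9 at 72 h with the mean of its probes (0.070, adjusted p = 0.438), and for Hspd1 from 24 h to 72 h without 24 h replicate 1 (-0.020, adjusted p = 0.826, in a range up to 0.136 without other arrays). The setting with no filter changed the number of genes tested, and the smaller fits used fewer arrays. Why calls or directions changed was not tested for any setting. Over all genes, calls at 6 h were 2153 higher and 1508 lower, against 1757 and 527 with median scaling, 1805 and 2040 with quantile normalization, 648 and 223 with no filter, and 1095 and 719 in the fit of the 2 times alone. No dim probe near background can bear a small change, which limits Hspa1a, Hyou1 and Hspb1.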

Other observations

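Hspb1 was well above background on 0 of 8 arrays, where its log2 signals were -5.36 and -6.19 at 0 h, -5.32 and -5.97 at 6 h, -6.73 and -6.95 at 24 h, and -7.39 and -6.96 at 72 h. A second probe of Dnajb11 was well above background on 1 array alone, 0 h replicate 2, where it read -3.92, against -6.64 or less on the other 7 arrays.

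By mean log2 signal, 7 of 17 ER genes were highest at 0 h, 8 at 6 h and 2 at 72 h, and 0 at 24 h. Of 14 cytosolic genes, 1 was highest at 0 h, 4 at 6 h, 3 at 24 h and 6 at 72 h, and all 3 mitochondrial genes were highest at 72 h.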
